A study of Mus musculus with 6 samples.

Results

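Curated RefSeq noncoding RNAs are transcripts that carry an accession beginning with NR_, the class RefSeq keeps for RNAs reviewed as noncoding. The members described here were chosen by that accession: 315 lncRNA probes of the array have one, 11 of them (H19, Airn, Aldoart2, Kcnq1ot1, Meg3 and 6 probes of Speer pseudogenes) were left out, and 304 members remained of 37181 lncRNA and mRNA probes in all. Rian and Mirg, which were to be left out as well, were not found among the names. Accessions without a name were kept, and some could be such genes or belong to a named class. By RefSeq name and gene type the members fall into 6 snoRNA host genes, 106 pseudogenes, 39 antisense RNAs, 97 others and 56 accessions that the files and tables used here do not pair with a name. The 97 others are 48 lncRNAs, 41 NR_ transcripts of genes that RefSeq types as protein-coding and 8 small structured RNAs such as the RNA of RNase MRP. Ube2d2b, Ube2dnl1, Elobl and Btbd19 are counted among the 41 by a gene name from the study's list, since RefSeq's table lacked their accessions. Speer1, typed as protein-coding and not as a pseudogene, stayed among them.

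RNA came from whole testis of male C57/BL6 mice, 3 neonatal samples (6 days old) and 3 adult samples (8 weeks old), each holding the mice of 1 of the 3 groups into which an age was divided. Total RNA was treated with DNase, copied into double-stranded cDNA from an oligo dT primer, labelled with Cy3 and read on 1 array per sample. Replicate 3 of both ages lay on slide 2 and the other 4 arrays on slide 1. The question was which of these RNAs differ in level between the neonatal testis, whose tubules hold Sertoli cells and spermatogonia, and the adult testis, whose tubules are filled with meiotic and haploid germ cells.

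A snoRNA host gene is spliced for the sake of its introns, which are trimmed to small nucleolar RNAs that guide the modification of ribosomal RNA, while the joined exons are often short-lived. A transcribed pseudogene is a disabled gene, often a copy of another gene, that is still copied into RNA, and an antisense RNA is read from the strand opposite to another gene. The testis is known for transcribing many noncoding RNAs and gene copies that are silent in other tissues, above all in meiotic and haploid germ cells.

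Levels are log2 values of the background-subtracted signal relative to the 75th percentile of the same array, so that 0 marks that percentile and -7.22 is a common floor below which nothing was resolved. Array values are listed for replicates 1, 2 and 3 in turn, flagged spots included, and a flag is not stated each time. A pair with a flagged spot was left out of the fit, so a fold change can rest on 2 of the 3 pairs listed. Means, SDs and fold changes leave out spots that the scanner software marked as outliers (outlier-flagged spots), and a change is adult minus neonatal. A change was called where limma's Benjamini-Hochberg adjusted p over all probes was at most 0.05 and the fold change at least 5. Where no array of the dimmer age was well above background, the change is also given as a lower bound, the brighter mean over the lowest signal that could be resolved there. Flagged spots are left out of that mean unless said otherwise.

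The markers of the testis cell types set the background against which the members are read. All 7 tested spermatid marker probes were called higher in adult testis, with a median log2 fold change of 10.69, and 11 of 11 were with outlier-flagged spots kept. The mean over all 11 probes, flagged spots included, was -5.00, -5.16 and -4.94 on the neonatal arrays and 5.19, 5.16 and 5.33 on the adult arrays. Prm2, whose product packs sperm DNA, went from -5.38 ± 0.32 (SD, n = 3) to 8.95 ± 0.18 (SD, n = 3). Of all tested mRNA probes, against which the gene lists here and below are to be read, 12.6% were called higher and 13.7% lower. Of 9 tested spermatocyte probes 5 were called higher and none lower (median 4.55), but 3 of the 5 are probes of Spo11, which makes the breaks of meiotic recombination, and the calls cover 3 of 7 genes. At limma's unadjusted p under 0.05 and any fold change 7 of the 9 were higher and 2 lower, and Dmc1, a recombinase of meiosis, fell by 2.06 (adjusted p = 0.000435). Dmc1 was called under quantile normalization (-2.45) and with the authors' values (-2.32). It was also called without adult replicate 1 (-2.32), where the pairing by replicate number was dropped too. Among 13 tested spermatogonium probes 6, of 4 genes, were called lower and 1 higher (median -2.28), among 3 Sertoli cell probes 2 lower (median -2.34) and among 6 endothelial probes 3, of 2 genes, lower (median -2.27). None was called by limma among 4 Leydig cell, 2 macrophage and 4 peritubular myoid probes, with medians of 0.49, -0.39 and -1.93, nor by the methods' paired test. That test, before adjustment, called 4 spermatogonium, 1 Sertoli cell and 0 endothelial probes lower and 5 spermatocyte probes higher. After Benjamini-Hochberg 2 of these 5 remained, none of them of Spo11. At limma's unadjusted p under 0.05 and any fold change, 2 Leydig cell probes were higher and 1 lower, 1 macrophage probe was lower and 3 peritubular myoid probes were lower.

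Many marker probes could be tested only with outlier-flagged spots kept. In that setting 6 of 12 spermatocyte probes were called higher (median 2.35), 9 of 15 spermatogonium probes lower and 1 higher (median -2.49), 6 of 9 Sertoli cell probes lower (median -3.12), 2 of 8 Leydig cell probes higher (median 1.03), 1 of 5 peritubular myoid probes lower (median -2.01) and 3 of 6 endothelial probes lower (median -2.33). Means over all probes of a list, flagged spots included, on the neonatal and then the adult arrays were -0.73, -0.99 and -1.28 against 2.06, 2.23 and 2.28 for spermatocyte markers, 0.01, 0.11 and 0.23 against -1.93, -2.11 and -1.89 for spermatogonium markers, and 1.91, 1.97 and 1.42 against -0.50, -0.90 and -1.26 for Sertoli cell markers. In whole tissue, fewer cells of a type and less RNA per cell cannot be told apart, and the part of cell composition in each change below was not tested.

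On 1 array or more, 249 of the 304 members (81.9%) gave a signal well above background, against 71.9% of all lncRNA probes and 86.0% of mRNA probes. On all 6 arrays 173 were well above background, 21 on the 3 adult arrays alone and 2 on the 3 neonatal arrays alone. The fit could test 203 members, since 46 more had too few complete pairs once outlier-flagged spots were left out. Of the 203, 29 (14.3%) were called higher in adult testis, where 15.4% of all 24517 tested probes were, and 9 (4.43%) were called lower, where 12.2% of all were. All members are lncRNA probes, and of the 9396 lncRNA probes tested 19.9% were called higher and 9.62% lower. The members' share called higher lay near that of the array and under that of lncRNA probes, and their share called lower was under both. The median log2 fold change was 0.07 for the members, -0.21 for all tested probes, 0.06 for lncRNA probes and -0.40 for mRNA probes. Another 103 members (50.7%) had an adjusted p of at most 0.05 with a change under 5-fold, as did 46.8% of all tested probes and 43.0% of lncRNA probes.

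These counts depend on the treatment of outlier-flagged spots, the scaling and the background correction. Outlier flags fell mostly on replicate 3, where 126 of the 249 measured members had one on at least 1 array, against 50 members with one on any of the other 4 arrays. Of the 38 called members only 16 had 3 complete pairs in the fit, and 22 had 2. An unflagged pair on slide 2 was there for 17 of the 38. With those spots kept, 249 members were tested, 42 (16.9%) were called higher, beside 15.8% of all probes, and 14 (5.62%) lower, beside 13.7%. Of lncRNA probes 21.2% were higher and 10.6% lower in that setting. All 38 members called with the spots left out were among these 56, and the other 18, 3 of them unnamed accessions, were called only with outlier-flagged spots kept. The split of calls into higher and lower moved with the scaling, from 29 and 9 to 29 and 18 under quantile normalization and 27 and 15 after a shift to each array's median. It was 24 and 12 with the authors' log2 values, which cover another set of probes with 145 members tested, and 23 and 5 after normexp, another background correction. The calls of the whole array moved too. Of all tested probes 15.5% were called higher and 17.7% lower under quantile normalization, 14.5% and 15.7% after the shift to the median, 16.1% and 18.7% with the authors' values, and 11.8% and 5.36% after normexp. Relative to the 75th percentile, these settings moved the median change of all probes by -0.36, -0.23, -0.38 and 0.47. The -0.38, with the authors' values, compares different sets of probes. The members' own median was -0.22, -0.16, 0.05 and 0.42 in these settings, so its sign turned with the scaling. After Benjamini-Hochberg adjustment the methods' paired test did not call 9 of the named members, 1700008J07Rik, 4930412O13Rik, 6430411K18Rik, Daw1, Gm10052, Gm44502, Gt(ROSA)26Sor, NR_003637 and Zf12. Nor did it call the mRNA probes of Lpxn, Pax6, Pih1d1, Rbm8a, Spo11 and Tgs1. With 2 complete pairs that test has 1 degree of freedom. Such members include 1700008J07Rik, Daw1, Gm44502 and Gt(ROSA)26Sor, so a lost call there also reflects the pair left out.

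None of the 3 snoRNA hosts that could be tested was called by limma or by the methods' paired test, none of all 6 was called by limma with outlier-flagged spots kept, and they did not move as one. At an unadjusted p under 0.05 and any fold change, 1 of the 3 tested was higher and 2 were lower. Snhg3 was higher in adult testis, Snhg7 and Snhg20 were lower, and each of these 3 passed the adjusted p but stayed under 5-fold. Snhg3, a host of box H/ACA snoRNAs, measured 2.79, 2.77 and 3.52 on the neonatal arrays and 4.55, 4.79 and 5.28 on the adult arrays. Every adult value lay above every neonatal one, a log2 difference of 1.84 (SE 0.11, limma adjusted p = 0.000458). Snhg20 measured 2.16, 2.30 and 2.56 in neonatal and 0.40, 0.57 and 1.06 in adult testis, with both values of replicate 3 outlier-flagged. Its log2 difference was -1.75 (SE 0.14, adjusted p = 0.00235), again without overlap.

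Snhg7 stood at -2.31, -2.48 and -1.11 on the neonatal arrays, the last one flagged, and at -4.12, -4.53 and -2.88 on the adult arrays. Replicate 3 was the highest of each age, and the ages still did not overlap (log2 difference -1.94, SE 0.15, adjusted p = 0.00238). The other 3 hosts had too few unflagged pairs and have values only with outlier-flagged spots kept. Snhg1, the host of a cluster of box C/D snoRNAs, measured 1.38, 1.47 and 0.26 in neonatal and -1.07, -1.33 and -1.10 in adult testis, a difference of -2.21 (SE 0.32, adjusted p = 0.00323). Snhg6 measured 3.02, 3.11 and 2.68 against 2.06, 2.12 and 1.05, a difference of -1.19 (SE 0.19, adjusted p = 0.00424). In both, all neonatal arrays exceeded all adult arrays. Snhg10 measured -1.47, -1.40 and -1.47 against -1.76, -0.29 and -0.75, and here the ages overlapped (0.51, SE 0.31, adjusted p = 0.191). The sign of the hosts is therefore mixed, 4 of 6 being lower in adult testis with all spots kept, and the median was -1.43.

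Proteins that assemble with snoRNAs give the setting for the hosts. Of 21 such genes 20 had a probe, and of 18 tested probes 3 were called lower and 1 higher in adult testis, with a median log2 fold change of -1.50, or -1.36 with genes not well above background at 1 age set to their bound. With outlier-flagged spots kept the calls were also 3 and 1, of 22 probes, and the median was -1.05. These medians lean on Nolc1, a chaperone of snoRNA particles in the nucleolus, which has 4 of the 18 probes. None of the 4 was well above background on any adult array or called, and their bounds ran from 2.64-fold to 3.19-fold lower. All 4 were called with no floor (-2.88 to -3.45), under quantile normalization (-2.86 to -3.34) and with the authors' values (-2.44 to -3.07), 3 with the floor set before scaling (-2.33 to -2.81) and 1 after the shift to the median (-2.33). Dkc1, the pseudouridine synthase of box H/ACA particles, fell from 1.14 ± 0.13 (SD, n = 2) to -1.93 ± 0.48 (SD, n = 3), a log2 fold change of -3.34 (SE 0.14, limma adjusted p = 0.000669). Nop56, a core protein of box C/D particles, fell by 2.97 on the log2 scale (SE 0.15, adjusted p = 0.000895). Tgs1, which adds methyl groups to the cap of small RNAs, was called at -2.67 (SE 0.19, adjusted p = 0.00195), but at -2.30 and not called without the replicate block. It also lost the call at -2.05 with normexp. Fits that left out a single array had no replicate block either. In them Tgs1 was not called at -2.25 without adult replicate 1 or at -1.98 without adult replicate 2. The -2.30 without neonatal replicate 3 is the value without the block, since that flagged spot was already left out.

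Fbl, the methyltransferase of box C/D particles, measured 3.39, 3.50 and 4.09 in neonatal and 1.21, 1.16 and 1.85 in adult testis. The ages were far apart, yet at -2.25 (SE 0.10, adjusted p = 0.000242) the change stayed just under 5-fold. It passed under quantile normalization (-2.56), after the shift to the median (-2.51) and with the authors' values (-2.51). It also passed without adult replicate 3 (-2.47) or neonatal replicate 1 (-2.39) or 2 (-2.33), where the pairing was dropped as well. Pih1d1, a subunit of the chaperone complex that builds the particles, rose by 2.40 (SE 0.19, adjusted p = 0.00232) and was not called under quantile normalization (1.98), the shift to the median (2.14) or the authors' values (2.09). Nonsense-mediated decay, the pathway that removes many spliced host transcripts, was measured for 14 of 16 genes. Among 12 tested probes 1 was called higher and 2 lower, with a median of 0.38. Smg9, a partner of the decay kinase, rose by 3.22 (SE 0.14, adjusted p = 0.000697). The 2 lower probes both belong to Rbm8a, an exon junction protein, which was not well above background on any adult array and has bounds of only 4.10-fold and 4.58-fold. Neither was called under normexp (-0.34 each), and the probe of NM_025875 was not called without neonatal replicate 1 (-2.10) or 2 (-2.27).

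Transcription start windows of the hosts are shown because genes of the translation machinery, host genes among them, often begin with an oligopyrimidine tract. RefSeq's promoter table (GRCm38.p6) held 5 of the 6 hosts. An oligopyrimidine start was taken as a C at the start followed by at least 4 C or T. Of these 5 only Snhg7 had one, and 2.51% of all 32851 promoters in RefSeq's table did. The windows run from 10 bases before the start to 30 after it, and capitals mark the run of C and T that begins at a C on the start base.
Snhg1, chr19:8723477-8723517, plus strand: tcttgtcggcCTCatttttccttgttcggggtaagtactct
Snhg7, chr2:26640214-26640254, minus strand: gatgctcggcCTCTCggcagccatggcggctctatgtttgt
Snhg3, chr4:132353656-132353696, minus strand: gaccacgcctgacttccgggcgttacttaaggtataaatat
Snhg10, chr12:105032249-105032289, minus strand: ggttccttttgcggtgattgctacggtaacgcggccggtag
Snhg20, chr11:117076773-117076813, plus strand: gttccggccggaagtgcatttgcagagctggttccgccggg
Snhg1 begins with 3 pyrimidines and then an a, and the other 3 windows have a G at the listed start. Among all 116 promoters found for 94 member genes 7 had an oligopyrimidine start.

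Pseudogenes made up the largest class. Of 106, 85 were measured and 65 tested, and the median log2 fold change was 0.18. Of the 65, 9 (13.8%) were called higher and 3 (4.62%) lower in adult testis, where 15.4% and 12.2% of all tested probes were. The largest changes ran from levels at or near the floor to levels well over the 75th percentile of the adult arrays. A probe for a pseudogene can also bind RNA of a parent gene or of other copies, which these arrays cannot separate, so each of these values is uncertain as to its source.

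1700123L14Rik measured -5.90, -6.32 and -6.34 on the neonatal arrays and 6.53, 6.63 and 6.75 on the adult arrays, the last one outlier-flagged. It was weakly present in every neonatal sample and far above the 75th percentile in every adult one. The mean rose from -6.19 ± 0.25 (SD, n = 3) to 6.58 ± 0.07 (SD, n = 2), a log2 fold change of 12.69 (SE 0.20, limma adjusted p = 0.000155). Gm5334 stood at the floor of -7.22 on all 3 neonatal arrays and at 2.87, 2.98 and 3.67 on the adult arrays. With no neonatal array well above background its adult level was at least 1264-fold higher (fitted log2 fold change 10.40, SE 0.20, adjusted p = 9.17e-05). 4921511C20Rik was likewise at the floor in every neonatal sample and at 1.99, 2.00 and 1.84 in the adult ones, the last one outlier-flagged. The lower bound of its rise was 539-fold with that spot and 558-fold without it (adjusted p = 0.000144).

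A second tier reached levels below the 75th percentile. 4930448K20Rik went from the floor on every neonatal array to -1.77, -1.63 and -1.80, at least 42.0-fold higher (adjusted p = 8.9e-05). 4930594C11Rik went from the floor to -3.12, -3.50 and -1.39, at least 22.0-fold higher (adjusted p = 0.00163), and its adult replicate 3 stood clearly above the other two. E130201H02Rik measured -6.70, -6.67 and -5.85 against -2.55, -2.25 and -2.14, and it was well above background on 2 of the neonatal arrays. Its ages lay 4.09 apart on the log2 scale (SE 0.18, adjusted p = 0.000212).

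A pair of vomeronasal receptor pseudogenes, copies of pheromone receptor genes of the nose, were measured only in adult testis. Vmn2r-ps54 reached -2.74, -3.07 and -2.70, at least 19.6-fold higher (adjusted p = 0.000132). Vmn2r-ps11 reached -3.53, -3.32 and -3.37, at least 13.2-fold higher (adjusted p = 0.000128), and lost its call under normexp, where the log2 fold change was 2.08. Their 3 adult arrays lay close together, and all 3 neonatal arrays were at the floor. Zfp389, a zinc finger pseudogene, measured -4.58, -4.85 and -4.76 in neonatal and -1.01, -1.41 and -0.84 in adult testis. It was present at both ages and rose by 3.50 over replicates 1 and 2, the pairs in the fit (SE 0.14, adjusted p = 0.000635).

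The 3 pseudogenes called lower were Zf12, Gm5643 and Gm10052. Zf12 measured -2.18, -2.11 and -2.16 in neonatal and -5.65, -5.79 and -5.33 in adult testis, where it was well above background on 2 of 3 arrays. It fell by 3.43 on the log2 scale (SE 0.20, adjusted p = 0.00124) and lost its call under normexp, at -1.32. Gm5643 measured 3.47, 3.56 and 3.95 against 0.59, 0.66 and 0.56. The fall was alike in replicates 1 and 2, the pairs in the fit (-2.89, SE 0.14, adjusted p = 0.000852), and larger in replicate 3. Gm10052 measured 3.13, 3.29 and 2.40 against 1.08, 0.20 and -1.44. Its replicate 3, outlier-flagged at both ages, was the lowest of each age, and the ages did not overlap (-2.57, SE 0.33, adjusted p = 0.0071). Without the filter on dim probes, and with the methods' paired test, Gm10052 was no longer called.

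With outlier-flagged spots kept, 15 pseudogenes were called higher and 6 lower, and the 9 that join are named here after their values were seen. 1700049L16Rik went from -6.29 ± 0.10 to 2.62 ± 0.09 (SD, n = 3 each, all adult spots flagged), a log2 fold change of 8.91 (limma adjusted p = 1.13e-05). 4933400A11Rik, not well above background on any neonatal array, was at least 272-fold higher, with adult values of 1.61, 1.50 and -0.24 that leave replicate 3 well below the others. 1700073E17Rik rose by 7.70 (SE 0.24, adjusted p = 4.6e-05). Tspy-ps, the remnant in laboratory mice of a Y-linked gene of spermatogonia, was at the floor in neonatal samples and at -0.51, -0.52 and -0.23 in adult ones. It was at least 104.7-fold higher (adjusted p = 1.46e-05).

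Sycp1-ps1, a copy of the gene for a synaptonemal complex protein, was at the floor in neonatal samples and at -1.41, -1.28 and -1.75 in adult ones, at least 50.1-fold higher (adjusted p = 2.78e-05). Ppp1r2-ps3, a copy of an inhibitor of protein phosphatase 1, measured 0.05, 0.31 and -1.78 against 4.43, 4.60 and 4.18. Its neonatal replicate 3 lay below the other neonatal arrays, and all adult arrays lay above (4.88, SE 0.39, adjusted p = 0.000503). Of the 3 that were lower, Gm6498 measured 3.29, 2.96 and 3.31 against -2.23, -3.04 and -3.20 (-6.01, SE 0.23, adjusted p = 7.37e-05). Hyi, which RefSeq types as a transcribed pseudogene, measured -1.52, -1.24 and -1.90 against -5.24, -6.16 and -5.78 (-4.18, SE 0.28, adjusted p = 0.000311). Gm5523 fell by 2.54 (SE 0.14, adjusted p = 0.00018) from a high neonatal level of 6.04 ± 0.38 (SD, n = 3).

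For 13 genes whose symbol a pseudogene member carries with the ending -ps, an mRNA probe was measured. None of the 12 tested was called by limma in either direction, with outlier-flagged spots left out or kept, and their median was -0.50. The methods' paired test called none, while at limma's unadjusted p under 0.05 and any fold change 3 were higher and 8 lower. Tyms, which makes thymidylate, changed by -2.29 (adjusted p = 0.000952), just under 5-fold, and was called under quantile normalization (-2.59), after the shift to the median (-2.55) and with the authors' values (-2.55). It was also called without replicate 1 (-2.52). With the pairing dropped as well, it was called without neonatal replicate 1 (-2.42) or 2 (-2.40), or adult replicate 1 (-2.39) or 3 (-2.40). The probes of Ubb, a ubiquitin gene, and Ubb-ps changed by 1.03 and 1.00, and those of Gpr137b, a lysosomal membrane protein, and Gpr137b-ps by -2.06 and -2.09. Shared sequence under both probes cannot be told apart from a like change of both genes. Gpr137b-ps was called after the shift to the median (-2.35), and Gpr137b with the authors' values (-2.34). Gpr137b-ps was also called without adult replicate 1 (-2.44) or 2 (-2.42), again with the pairing dropped. Sycp1 and Ppp1r2 changed by 0.81 and -0.63, where the probes of their pseudogenes changed by a fitted 5.74 and 4.88 with all spots kept. Sycp1-ps1 was at the floor in neonatal samples, so 5.74 is not an exact size. The difference between a gene and its pseudogene was not tested.

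Antisense RNAs were the class least often measured. Of 39, 24 gave a signal well above background on some array and 22 were tested, with 4 (18.2%) called higher and none lower. The shares were 15.4% and 12.2% of all tested probes and 19.9% and 9.62% of lncRNA probes. The methods' paired test called 4 higher and 0 lower before adjustment and 2 higher and 0 lower after Benjamini-Hochberg, and at limma's unadjusted p under 0.05 and any fold change 11 were higher and 5 lower. The median log2 fold change was 0.40, or 0.35 with members at their bounds. The 4 are each read against a protein-coding gene in RefSeq: 1700008J07Rik against Srcap, 4930412O13Rik against Gata3, Pax6os1 against Pax6 and Gm10941 against Pofut2.

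1700008J07Rik, opposite the chromatin remodeller gene Srcap, measured -3.86, -3.48 and -4.77 on the neonatal arrays and -0.05, 0.05 and -0.41 on the adult arrays. It was measured in all 6 samples without overlap. Over replicates 1 and 2, the pairs in the fit, it rose by 3.67 (SE 0.16, limma adjusted p = 0.000719). No mRNA probe was found for Srcap. 4930412O13Rik, opposite the transcription factor gene Gata3, measured -5.84, -7.22 and -5.31 against -3.11, -2.86 and -3.06. The adult arrays were close together, the neonatal ones were spread and 1 of them was at the floor (3.12, SE 0.46, adjusted p = 0.00462). Its call was lost under normexp (1.78) and without replicate 1 (3.31). The Gata3 probe changed by 0.76 (SE 0.36, adjusted p = 0.124) and was not called.

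Pax6os1, opposite the transcription factor gene Pax6, was at the floor on all neonatal arrays and at -3.66, -4.73 and -4.34 on the adult arrays. It was at least 7.41-fold higher (fitted 2.98, SE 0.24, adjusted p = 0.000894), and under normexp the change of 1.96 was not called. The Pax6 probe moved the same way, from -7.22, -7.22 and -6.48 to -3.25, -3.95 and -4.01. It was not well above background on any neonatal array and was at least 7.48-fold higher (adjusted p = 0.00343), a call lost under normexp (1.04), without the filter on dim probes and with the methods' paired test. Gm10941, opposite the O-fucosyltransferase gene Pofut2, measured -7.07, -6.64 and -7.22 against -4.94, -3.96 and -4.77. At a bound of 5.20-fold (fitted 2.42, SE 0.15, adjusted p = 0.000455) it lay just past the threshold and was not called under quantile normalization (2.13), the shift to the median (2.21), the authors' values (2.21) or normexp (1.17). Its call also ended without replicate 2 (2.29). It ended too without adult replicate 2 (2.13) or neonatal replicate 3 (2.30), where the pairing was dropped as well. The Pofut2 probe changed by -0.29 (adjusted p = 0.151).

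4930488L21Rik, opposite the G protein gene Gnao1, had the largest change of the class, and only with outlier-flagged spots kept, since every adult spot was flagged. It measured -7.22, -7.22 and -6.90 in neonatal and 2.29, 2.41 and 0.78 in adult testis. Adult replicate 3 was below the other adult arrays and far above all neonatal ones (8.94, SE 0.45, adjusted p = 0.000147). Both Gnao1 probes were higher in adult testis, by 2.78 (adjusted p = 0.000176), which was called, and by 2.02 (adjusted p = 0.000678), which was under 5-fold.

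The antisense partners taken as a list had an mRNA probe for 18 of 20 genes. Of 17 tested probes 4 were called higher and 1 lower, and the median was 0.25. Besides Pax6 and Gnao1, Lpxn, a focal adhesion protein, rose by 5.23 (SE 0.21, adjusted p = 0.000603) and Mpig6b, a receptor of the platelet lineage, by 3.65 (SE 0.11, adjusted p = 0.000135). Uxt, a prefoldin-like protein, was not well above background on any adult array and was at least 14.7-fold lower (adjusted p = 0.000998), and under normexp its change of -1.09 was not called. Its antisense member A230072C01Rik has 2 probes, neither of them called. NR_027446 was not well above background on any adult array and was lower there by a bound of 2.31-fold (fitted -1.59, adjusted p = 0.0575). It was called under quantile normalization (-2.80), with the authors' values (-2.60) and without replicate 3 or neonatal replicate 3 (-2.36 each). NR_027445 changed by -1.12 (adjusted p = 0.00254) and turned to 0.099 under normexp. A probe detects its partner's RNA as well where cDNA of both strands was labelled, which was not tested.

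Other antisense members stayed under 5-fold. D030028A08Rik, opposite the transcription factor gene Sp2, measured -3.76, -4.02 and -3.23 against -6.07, -5.74 and -5.17. All neonatal values exceeded all adult ones (-1.99, SE 0.15, adjusted p = 0.000808), and under quantile normalization the change of -2.32 was called. Abhd11os and Wt1os differed by -1.20 (adjusted p = 0.00294) and -0.99 (adjusted p = 0.00921). Gnasas1, an imprinted antisense RNA of the Gnas locus also known as Nespas, measured -0.65, -0.64 and -0.19 against 1.05, 1.02 and 1.49, higher in every adult sample (1.68, SE 0.14, adjusted p = 0.00255). Dlx6os1, opposite a homeobox gene, was near the floor at both ages (0.66, SE 0.23, adjusted p = 0.057). Tsix, Dnm3os and all 3 probes of Six3os1 were not well above background on any array.

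Among the 97 other members 82 were measured and 69 tested, and the median log2 fold change was -0.14. Of the 69, 10 (14.5%) were called higher and 3 (4.35%) lower, where 15.4% and 12.2% of all tested probes were. The 32 tested NR_ transcripts of protein-coding genes gave 5 of the higher calls and none of the lower ones, or 7 and 1 of 41 with outlier-flagged spots kept. The 35 tested lncRNAs gave 5 and 3, or 6 and 4 of 39. A probe of an NR_ transcript of a protein-coding gene may share exons with the coding transcripts of the same gene, so its value need not be that of a noncoding form. Whether Ube2d2b, Ube2dnl1 and Elobl, all among these higher calls, have a noncoding form was not tested.

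Ube2d2b and Ube2dnl1, genes related to the ubiquitin-conjugating enzymes of the UBE2D family, had the largest changes of these calls with outlier-flagged spots left out. Ube2d2b measured -7.22, -7.22 and -6.40 on the neonatal arrays and 5.73, 6.04 and 6.17 on the adult arrays. Of the neonatal arrays only replicate 3 was well above background, and the fit left that pair out because its adult spot was outlier-flagged. The neonatal arrays in the fit were both at the floor. With the flagged spot kept all 3 pairs enter, and the change was 12.93 on the log2 scale (SE 0.18, limma adjusted p = 1.13e-05). Ube2dnl1 was at the floor in all neonatal samples and at 2.50, 2.70 and 1.86 in the adult ones, the last one outlier-flagged. The lower bound of its rise was 714-fold with that spot and 846-fold without it (adjusted p = 0.000147). Daw1, an assembly factor of the dynein arms that drive cilia and flagella, measured -6.28, -5.23 and -4.78 against 2.78, 2.78 and 3.54. It was present in all neonatal samples at a low and spread level and uniformly high in adult testis (8.53, SE 0.33, adjusted p = 0.00057).

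Senp2, a protease that removes SUMO, measured -2.22, -2.19 and -2.08 against 0.77, 0.85 and 0.93. Values within each age were close together, and the ages lay 3.02 apart (SE 0.14, adjusted p = 0.000792). Elobl, an elongin B-like gene, was at the floor in neonatal samples and at -4.08, -3.83 and -5.16 in adult ones, at least 6.84-fold higher (adjusted p = 0.00178). Under normexp its change of 1.67 was not called. With outlier-flagged spots kept, and named after their values were seen, Speer1, a member of a testis gene family rich in glutamate, was at least 1234-fold higher (adjusted p = 1.19e-05). In the same setting Vash2, a tubulin carboxypeptidase, rose by 4.84 (SE 0.24, adjusted p = 0.000142).

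Among the lncRNAs proper, 1700020N18Rik measured -7.22, -7.22 and -7.15 in neonatal and 1.73, 1.50 and 2.28 in adult testis. No neonatal array was well above background, and it was at least 422-fold higher (limma adjusted p = 0.000168). Gm44502 measured -4.16, -3.93 and -3.44 against 1.77, 1.62 and 2.20, measured everywhere and far apart between ages. Its change over replicates 1 and 2, the pairs in the fit, was 5.74 (SE 0.18, adjusted p = 0.000375). 4930426L09Rik measured -3.97, -3.85 and -3.46 against -0.47, -0.50 and -0.20. It had no flagged spot and rose by 3.37 (SE 0.11, adjusted p = 0.000143). Gm11166, called only with outlier-flagged spots kept and named after its values were seen, was at least 334-fold higher (adjusted p = 2.19e-05).

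Gt(ROSA)26Sor, the transcript of the locus widely used to place transgenes, had 3 probes that disagreed in size. NR_027010 measured -2.51, -2.48 and -2.59 in neonatal and 1.28, 0.65 and 0.12 in adult testis, and was the only one called. Its change over replicates 1 and 2, the pairs in the fit, was 3.46 (SE 0.23, adjusted p = 0.00168), and replicate 3 had the smallest change. NR_027009 changed by 1.57 (SE 0.16, adjusted p = 0.00166) and NR_027008 by 1.29 (SE 0.14, adjusted p = 0.00467). All were higher in adult testis, and the methods' paired test did not call NR_027010. Miat, a nuclear RNA first studied in neurons, measured -5.95, -6.16 and -5.63 against -3.36, -3.76 and -3.23, low at both ages and without overlap (2.47, SE 0.11, adjusted p = 0.00022). Its call did not hold under quantile normalization (2.13), the shift to the median (2.21), the authors' values (2.21) or normexp (1.67).

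The 3 lncRNAs called lower include 2 with known loci. Firre, an X-linked nuclear RNA that helps to organise chromatin, has 2 probes here. NR_026976 measured 1.16, 1.59 and 2.60 in neonatal and -1.60, -1.34 and -0.81 in adult testis, with replicate 3 the highest of each age and no overlap. Its change over replicates 1 and 2, the pairs in the fit, was -2.85 (SE 0.15, limma adjusted p = 0.000969). NR_015505 could be tested only with outlier-flagged spots kept, and there it fell by 2.47 (SE 0.13, adjusted p = 0.000177), from 1.66, 1.86 and 1.83 to -0.61, -0.63 and -0.83. 6430411K18Rik, known as the imprinted antisense transcript of Rtl1 but placed among the others because neither its symbol nor the RefSeq overlap made it antisense, measured -4.14, -3.08 and -3.24 against -7.22, -7.22 and -5.55. It was well above background in every neonatal sample and in 1 adult sample (-3.18, SE 0.39, adjusted p = 0.0026), and its call was lost under normexp (-1.25) and without replicate 1 (-3.23). Gm14379 fell from -3.31, -3.49 and -3.97 to -5.99, -6.13 and -7.22 (-2.86, SE 0.17, adjusted p = 0.000426), a call that normexp did not keep (-0.88).

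Several long known RNAs were measured at both ages and not called. Malat1, an RNA of nuclear speckles, measured 1.57, 1.71 and 2.80 against 1.04, 1.23 and 2.01. The ages overlapped, with replicate 3 the highest of each, and the paired difference was -0.60 (SE 0.12, adjusted p = 0.0108). Neat1, the scaffold of paraspeckles, differed by 0.15 (SE 0.22, adjusted p = 0.588) and Peg13, an imprinted RNA, by 0.20 (SE 0.12, adjusted p = 0.201), and both signs turn with the scaling, to -0.11 and -0.059 after the shift to the median. The 2 probes of Tug1 differed by -1.06 (SE 0.23, adjusted p = 0.0267) and -0.49 (SE 0.16, adjusted p = 0.0483), the second of which turned to 0.10 under normexp. Pvt1, a neighbour of Myc, measured -3.95, -3.88 and -5.13 against -6.66, -4.41 and -6.21 and was well above background on 1 adult array. Its ages overlapped (-1.44, SE 0.47, adjusted p = 0.0491).

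Of the 8 small structured RNAs only the RNA of RNase MRP (Rmrp) and that of RNase P (Rpph1) were measured, on all 6 arrays. Rmrp measured 2.16, 2.20 and 2.69 against 0.67, 0.94 and 1.45, lower in every adult sample (-1.37, SE 0.15, adjusted p = 0.00514). Rpph1 differed by -0.73 (SE 0.13, adjusted p = 0.00884). No array had Terc, the telomerase RNA, well above background, nor, among the lncRNAs, either probe of Xist, the RNA that coats the inactive X of females.

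Among the 56 unnamed accessions 44 were tested, 6 (13.6%) called higher and 3 (6.82%) lower, where 15.4% and 12.2% of all tested probes were. NR_002893 measured -7.22, -7.22 and -7.14 in neonatal and 5.16, 5.16 and 5.83 in adult testis, at least 4906-fold higher (limma adjusted p = 0.000126). NR_003637 was at least 787-fold higher (adjusted p = 0.000398). NR_003641 measured 1.34, 1.46 and 1.70 against -2.94, -2.83 and -2.85, tight within each age and far apart. Its change over replicates 1 and 2, the pairs in the fit, was -4.28 (SE 0.14, adjusted p = 0.000405). NR_003957 was at the floor on all adult arrays and at least 8.62-fold lower there (adjusted p = 0.000753), a call lost under normexp (-0.79). It was the only member called lower for which a bound was needed, against 14 of the 29 called higher.

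Promoters of members called higher in adult testis were searched on both strands for TGACGTCA (the cyclic AMP response element, bound by the factor that drives many spermatid genes), CCAAT and CAGTTG (the core bound by Myb proteins, one of which acts in spermatocytes). RefSeq's table had 13 promoters for 12 of these genes, none of them a pseudogene. TGACGTCA stood in 2 of the 13, CCAAT in 6 and CAGTTG in 2. Over the 32851 promoters of the table, 300 bases each, the shares were 1.79%, 37.4% and 13.7%. Among all 116 promoters of members 5, 41 and 16 held them. A match is a description of letters and not of binding.

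The 2 promoters with TGACGTCA are those of 4930412O13Rik and Senp2, and they are shown with those of the 4 largest changes that the table holds among members called with outlier-flagged spots left out, Daw1 by the first of its 2 starts. Each runs from 250 bases before the start to 50 after it, on GRCm38.p6, and capitals mark the motifs on either strand, so that ATTGG stands for CCAAT and CAACTG for CAGTTG.
4930412O13Rik, chr2:9880996-9881295, plus strand: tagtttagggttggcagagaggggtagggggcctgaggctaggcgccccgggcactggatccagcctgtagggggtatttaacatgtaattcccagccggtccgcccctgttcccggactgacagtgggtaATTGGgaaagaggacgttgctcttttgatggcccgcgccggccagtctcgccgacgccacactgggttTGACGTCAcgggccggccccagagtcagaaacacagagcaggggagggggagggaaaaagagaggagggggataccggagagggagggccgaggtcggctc
Senp2, chr16:22009234-22009533, plus strand: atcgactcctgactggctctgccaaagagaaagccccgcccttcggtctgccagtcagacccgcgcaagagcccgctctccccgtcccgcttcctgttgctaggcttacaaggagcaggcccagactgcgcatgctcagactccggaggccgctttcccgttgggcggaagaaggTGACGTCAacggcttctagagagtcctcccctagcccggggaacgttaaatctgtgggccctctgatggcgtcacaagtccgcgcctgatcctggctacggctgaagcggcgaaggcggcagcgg
Ube2d2b, chr5:107829912-107830211, plus strand: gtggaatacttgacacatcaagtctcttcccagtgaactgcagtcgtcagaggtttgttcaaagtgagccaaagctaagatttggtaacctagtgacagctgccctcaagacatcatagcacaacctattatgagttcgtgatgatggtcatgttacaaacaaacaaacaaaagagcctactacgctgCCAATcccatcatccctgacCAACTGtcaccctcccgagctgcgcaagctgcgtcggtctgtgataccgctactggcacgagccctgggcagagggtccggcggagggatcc
Ube2dnl1, chrX:114904762-114905061, plus strand: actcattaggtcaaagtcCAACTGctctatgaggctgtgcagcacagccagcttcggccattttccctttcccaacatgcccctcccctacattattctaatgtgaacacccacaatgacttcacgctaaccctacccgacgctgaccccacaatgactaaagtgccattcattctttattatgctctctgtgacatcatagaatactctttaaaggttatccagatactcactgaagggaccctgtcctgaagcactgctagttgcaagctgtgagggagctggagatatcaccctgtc
1700020N18Rik, chr1:91405980-91406279, minus strand: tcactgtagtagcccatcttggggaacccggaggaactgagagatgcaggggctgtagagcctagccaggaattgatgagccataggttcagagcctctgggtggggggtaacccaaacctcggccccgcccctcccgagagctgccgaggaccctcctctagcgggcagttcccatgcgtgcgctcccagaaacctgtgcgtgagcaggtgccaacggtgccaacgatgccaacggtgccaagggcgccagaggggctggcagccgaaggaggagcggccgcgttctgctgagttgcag
Daw1, chr1:83159505-83159804, plus strand: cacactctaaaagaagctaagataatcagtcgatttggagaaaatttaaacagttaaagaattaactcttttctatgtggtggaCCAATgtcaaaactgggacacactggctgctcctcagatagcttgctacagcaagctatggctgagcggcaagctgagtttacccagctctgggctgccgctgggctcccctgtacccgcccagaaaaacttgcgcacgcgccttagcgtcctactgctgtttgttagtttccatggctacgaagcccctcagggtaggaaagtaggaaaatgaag
Ube2d2b holds CCAAT and CAGTTG close to each other, Ube2dnl1 holds CAGTTG far from the start, and Daw1 holds CCAAT. 4930412O13Rik holds TGACGTCA and CCAAT, and none of the 3 motifs occurs in the window of 1700020N18Rik.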

How the data were processed

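The authors read each array with Agilent Feature Extraction 10.5.1.1 and deposited, per spot, a background-subtracted intensity that is not normalized between arrays, with the scanner's flags. They also deposited a table of log2 values, whose medians are 1.28, 1.30 and 1.27 for neonatal and 1.20, 1.27 and 1.22 for adult replicates 1 to 3. Compared with the scanner files, every value of that table (100%, to within 0.001) is log2 of the signal, with signals under 5 raised to 5, less 1 constant for the array, so its scale and direction are known.

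The fit used neither controls nor spots with an outlier flag, and none was saturated. Repeated spots were averaged per probe and divided by the array's 75th percentile over the probe averages. Values under a floor shared by all arrays, the largest scaled value that a signal of 5 takes, were raised to it before log2 was taken. The lowest signal well above background lay between 6.09 and 24.0 over the arrays, which limits the weakest level that can be read, and the number of arrays limits the precision. A probe was tested if at least 1 array showed it well above background and 2 pairs or more were complete, in R 4.3.3 using limma 3.58.1. The study's methods state a paired test, and replicate number therefore entered as a block. The fit was tested on simulated data. Same-numbered arrays deviated together from the means of their ages (r = 0.497, 0.429 and 0.777 over 7333 probes, which are not independent), and so did arrays of slide 1 with different numbers (0.470 and 0.508), so that on slide 1 a shared number went with no closer likeness. For replicate 3, alone on slide 2, number and slide cannot be told apart. Tables were made with Python 3.11.15, numpy 2.4.6 and pandas 2.3.3.

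Names came from a RefSeq table (GRCm38.p6) by accession: 243 members matched directly, 5 through the name in the study's own lncRNA list, and 56 not, and of 22464 mRNA probes 21901 matched. Named are all snoRNA hosts, called pseudogenes and antisense members, the 10 largest called changes in each direction among the others, the largest bounds, a set of long known noncoding RNAs, and members said to be named after their values were seen. Members called only with outlier-flagged spots kept are all counted, but 1 named member and the 3 without a name are not reported here by name. Genes of the lists, and Ubb-ps, Gpr137b-ps, A230072C01Rik, D030028A08Rik, Abhd11os and Wt1os, were also picked to be named after their values were seen. Parent genes of pseudogenes could not be taken from RefSeq descriptions, which the table lacks, so genes of the same symbol were used, a choice made after the data were seen. Members and lists were chosen with earlier results of these data known.

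Alternatives concerned the floor (none, or set before scaling), the scaling (quantile, median or the authors' log2 values), the background (normexp, offset 50), the filter on dim probes, outlier-flagged spots (kept), the block (none, or slide), the prior variance (with trend), a fold of 2, the methods' paired test and left-out arrays. Where a single array was left out, the block was left out too.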

Additional observations from a re-analysis of the deposited data

How the results depend on the processing

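Of the 29 members called higher and 9 called lower, the counts were also 29 and 9 with no replicate block, which changed the call of no named member and of no named gene but Tgs1 (-2.30), and with the slide as a block, so that pairing by number or by slide did not move them. Without replicate 3, which leaves slide 1 alone, they were 30 and 9, while slide 2 holds 1 pair and allows no test. A fold of at least 2 gave 60 and 50. The count of members called lower was 18 under quantile normalization, 15 after the shift to the median, 5 with normexp, 14 with outlier-flagged spots kept and 5 with the methods' paired test after Benjamini-Hochberg, where 23 were higher. Without adjustment that test gave 28 and 7.

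With arrays left out, the counts ranged from 12 to 31 higher and from 3 to 11 lower. They were 12 and 3 without replicate 1, 12 and 6 without replicate 2, 13 and 7 without adult replicate 1, 12 and 8 without adult replicate 2, and 27 and 4 without neonatal replicate 1 or neonatal replicate 2. Fewer probes can be tested there, because replicate 3 holds most outlier-flagged spots. Fits without a single array also had no replicate block, so the array and the pairing changed together in them.

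Of 33 named members with a call, 33 kept it with no floor and with outlier-flagged spots kept, 31 under quantile normalization, 23 with normexp and 24 with the methods' paired test after Benjamini-Hochberg, and none changed sign. Among named members without a call, D030028A08Rik gained one under quantile normalization (-2.32), Gpr137b-ps after the shift to the median (-2.35) and without adult replicate 1 (-2.44) or 2 (-2.42), and A230072C01Rik (NR_027446) under quantile normalization (-2.80), with the authors' values (-2.60) and without replicate 3 or neonatal replicate 3 (-2.36 each). Some signs turned. Peg13 was -0.059 after the shift to the median, -0.063 with the authors' values, and from -0.14 (without adult replicate 3) to 0.46 with arrays left out. Neat1 was -0.11 and -0.14 in the first and second of these, and with normexp Tug1 (NR_002322) was 0.10 and A230072C01Rik (NR_027445) was 0.099. The cause was not tested. Signal over background limits members at the floor, whose changes are bounds.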
